A study of Mus musculus with 12 samples.

Results

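The gluconeogenesis genes described here are Pck1, G6pc, Fbp1, Fbp2, Pcx, Slc37a4, Gpt and Gpt2, 8 of the 54838 genes counted in RNA-seq libraries of mouse ileum. They were chosen by name, as enzymes and a transporter of glucose synthesis, with earlier results of these data known. All 8 were found by their Ensembl identifiers and passed the filter on low counts. The study asked how zinc in the drinking water and a glucocorticoid act, alone and together, on gene expression in the gut. All animals were female C57BL/6J mice of 8 to 14 weeks, without genetic change, and each of the 12 libraries came from the whole ileum of 1 mouse. The water + PBS group drank normal water for 7 days and was injected intraperitoneally with PBS, and the ZnSO4 + PBS group drank 25 mM ZnSO4 for the same time before the PBS injection. The water + Dex and ZnSO4 + Dex groups drank the same fluids and received 200 µg of dexamethasone (Dex, given as Rapidexon), a synthetic ligand of the glucocorticoid receptor. All ilea were taken 2 h after the injection, 3 mice in each of the 4 groups, so the data hold 1 early time point and 1 dose of each agent.

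Gluconeogenesis builds glucose from lactate, glycerol and amino acids and is best known from liver and kidney cortex, while the small intestine carries the same enzymes at varying levels. It runs along glycolysis in reverse, except at the steps that glycolysis makes irreversible, where pyruvate carboxylase (Pcx), cytosolic phosphoenolpyruvate carboxykinase (Pck1), fructose bisphosphatase (Fbp1 and Fbp2) and the catalytic subunit of glucose-6-phosphatase (G6pc) take over. Slc37a4 carries glucose 6-phosphate into the endoplasmic reticulum, where G6pc acts, and the alanine aminotransferases Gpt (cytosolic) and Gpt2 (mitochondrial) turn alanine into pyruvate. In liver, glucocorticoids and cAMP are textbook inducers of Pck1 and G6pc.

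Total counts per library lay between 10760132 and 11827487. Values below are normalised counts, meaning counts scaled to a common effective library size of 11377723, and LFC is the log2 fold change. A gene was called where the quasi-likelihood test of edgeR gave a Benjamini-Hochberg adjusted p under 0.05 over the 15938 genes tested and the LFC exceeded 0.8 in size. The treatments showed in their known target genes. All 7 listed Dex targets (Ddit4, Fkbp5, Tsc22d3, Zbtb16, Sgk1, Pdk4 and Per1) were called higher with Dex in mice on either fluid, and zinc raised Mt1 and Mt2, the metallothioneins, and lowered Slc39a4, the zinc importer, with PBS as well as with Dex. Some libraries stood apart in their counts of cell type markers. Summed counts of 14 hepatocyte markers lay between 209 and 1080 in 10 libraries but at 6612 in water + Dex replicate 3 and 3899 in ZnSO4 + Dex replicate 2, and the latter also had the lowest sum of 12 enterocyte markers, 137610 against 251071 to 372356 elsewhere. The enterocyte sum was high in every library, although Fabp1, 1 of its genes, stood at only 18.5 to 147. Relations of some members with the hepatocyte, adipocyte and enterocyte sums are given below. In whole tissue, fewer cells of a type and less RNA per cell cannot be told apart.

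Pck1 had the largest LFCs of the 8 genes in each comparison. This gene (ENSMUSG00000027513, chr2:173153048-173159273, plus strand, GRCm38) encodes the enzyme that turns oxaloacetate into phosphoenolpyruvate, and only 0.432% of the 31-base words in its exons recur elsewhere among genes. Dex raised it 40.5-fold in mice on water, zinc alone raised it 3.42-fold, and the highest counts were found where both were given. In RefSeq (GRCm38.p6), the promoter window of Pck1, from 250 bases before to 50 after the transcription start, is chr2:173152823-173153122 on the plus strand. It is shown because Pck1 carries the main result, and the capitals mark a match to a full cAMP response element (TGACGTCA or TTACGTCA, searched on both strands, TGACG being its shorter form), whose first base lies at -93 from the start.
Pck1: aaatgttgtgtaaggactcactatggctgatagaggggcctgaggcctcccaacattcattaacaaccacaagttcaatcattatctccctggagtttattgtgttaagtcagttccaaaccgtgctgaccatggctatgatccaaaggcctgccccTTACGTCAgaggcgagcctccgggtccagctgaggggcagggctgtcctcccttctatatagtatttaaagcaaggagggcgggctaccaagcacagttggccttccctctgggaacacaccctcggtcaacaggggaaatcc
A full element of this kind was in 2.28% of the 32851 mouse promoter windows of this length. Neither the short glucocorticoid response motif AGAACA (19% of all windows), the full glucocorticoid response element (0.00913%), the FOXO motif GTAAACA (3.65%) nor the metal response motif TGCACNC or TGCGCNC (25.7%) was in the letters of this window. The full glucocorticoid response element was in only 3 of the 32851 windows, so its absence here says little. Letters more than 250 bases before the start were not searched. These are matches of letters, and binding was not measured.

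The 3 water + PBS mice had 237, 214 and 107 normalised counts of Pck1, the ZnSO4 + PBS mice 660, 563 and 686, the water + Dex mice 5895, 9463 and 7238, and the ZnSO4 + Dex mice 17935, 9740 and 19240. No 2 of the 4 groups overlapped, although the lowest ZnSO4 + Dex mouse lay close to the highest water + Dex mouse. The means were 186 ± 69.2, 636 ± 65.0, 7532 ± 1802 and 15638 ± 5150 (SD, n = 3 each).

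Dex in mice on water raised Pck1 with an LFC of 5.34 (SE 0.35, adjusted p = 3.7e-06, edgeR), and Dex in mice on zinc with an LFC of 4.62 (SE 0.34, adjusted p = 6.6e-06). Zinc under PBS gave an LFC of 1.77 (SE 0.32, adjusted p = 0.011). These calls stayed when any 1 library was left out, with an LFC between 5.06 and 5.55, 4.44 and 4.87, and 1.496 and 2.01. Tested against an LFC of 0.8 in place of 0 (glmTreat), the call with zinc under PBS was lost (adjusted p = 0.23). Zinc on top of Dex gave an LFC of 1.05 (SE 0.29) that was not called, with an adjusted p of 0.068 in edgeR. That comparison was called without ZnSO4 + Dex replicate 2, the mouse with few enterocyte and many hepatocyte markers (LFC 1.30, adjusted p = 0.020), and without water + PBS replicate 3, which enters only the estimate of the spread (LFC 1.05, adjusted p = 0.041). DESeq2 also called it (adjusted p = 0.0047). The interaction, the difference between the Dex effect on zinc and on water, was -0.72 (SE 0.42, unadjusted p = 0.12, adjusted p = 0.95, edgeR). The comparisons share groups with each other, so their LFCs are not independent.

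Markers of other cell types in the tissue moved in part with Dex. Of the 10 adipocyte markers, which belong to fat cells that also make Pck1, 1 was called higher with Dex in water (Plin4) and none lower, and their sum ranged over 2039 to 5221 in water + PBS, 3000 to 8368 in ZnSO4 + PBS, 5349 to 10606 in water + Dex and 3713 to 7176 in ZnSO4 + Dex. The mouse with most Pck1, ZnSO4 + Dex replicate 3, had an adipocyte sum of 3713, with 0 normalised counts of Plin1, Lep and Retn, 1.07 of Adipoq and 2.14 of Cfd, while the other 5 markers ran from 146 (Lpl) to 2562 (Pnpla2, the highest of the 12 libraries). Pnpla2 stood at 1243 to 1777 in the PBS groups and at 2082 to 2562 in the Dex groups, without overlap. The sum thus does not count fat cells alone, and part of its rise with Dex on water was Pnpla2. With the adipocyte sum as a covariate, chosen after seeing the data, the LFC of Pck1 was 5.37 for Dex in water and 1.79 for zinc in PBS, and without the 2 libraries rich in hepatocyte markers it was 5.37 and 1.77. The sum of 6 proximal enterocyte markers was 1892 to 2340 in water + PBS, 1849 to 2774 in ZnSO4 + PBS, 6257 to 8210 in water + Dex and 3956 to 6373 in ZnSO4 + Dex, and none of the 6 was at 0 throughout a group. Much of this rise was 1 gene, Adh6a, with 218 to 240 normalised counts in water + PBS and 3512 to 4817 in water + Dex. Adh6a was the only gene of the 6 called higher with Dex on either fluid, and it was called lower with zinc under PBS. Rbp2 and Apoc3 were also higher in water + Dex than in water + PBS, without overlap, while Lct and Cybrd1 overlapped. Gata4, at low counts, went the other way with Dex and was not called. It stood at 14.6 to 62.2 in water + PBS and at 5.57 to 14.04 in water + Dex. On zinc Gata4 stood at 5.56 to 30.2 under PBS and at 1.92 to 3.11 with Dex. The part of proximal enterocyte genes in the Pck1 result was not tested.

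**Figure D1:**
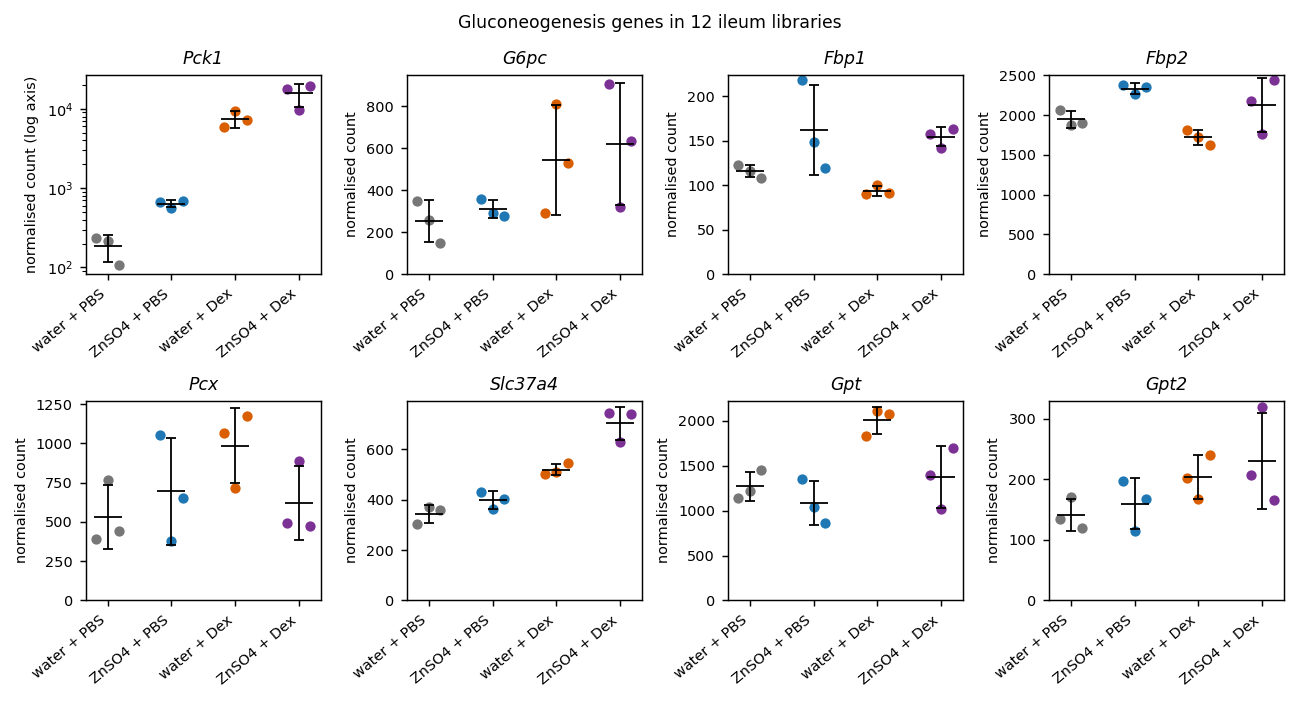
Normalised counts of the 8 gluconeogenesis genes (y axes, log scale for Pck1 and from 0 for the others) in each of the 12 mice, by group, with the mean and SD of 3 mice in black. Pck1 steps from 107 to 237 in water + PBS up to 9740 to 19240 in ZnSO4 + Dex, while the groups of G6pc, Pcx and Gpt2 overlap in each comparison.

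G6pc and Slc37a4, the pair that releases glucose in the endoplasmic reticulum, differed in how steady their values were. G6pc (ENSMUSG00000078650, chr11:101367561-101377903, plus strand, GRCm38) encodes the subunit that splits glucose 6-phosphate, the last step of the pathway. Its promoter window, chr11:101367466-101367765 on the plus strand (RefSeq, GRCm38.p6), held none of the motifs searched and so has no capitals. It is shown with the first of the 3 windows of Slc37a4, chr9:44396696-44396995 on the plus strand, in which the capitals mark a short cAMP motif (TGACG, found in 20.8% of all windows) and 2 metal response motifs.
G6pc: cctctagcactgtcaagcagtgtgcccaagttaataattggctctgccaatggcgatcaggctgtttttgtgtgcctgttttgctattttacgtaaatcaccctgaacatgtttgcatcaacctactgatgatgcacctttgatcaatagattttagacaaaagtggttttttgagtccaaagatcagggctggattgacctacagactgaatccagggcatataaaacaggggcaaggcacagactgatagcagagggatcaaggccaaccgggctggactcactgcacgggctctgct
Slc37a4: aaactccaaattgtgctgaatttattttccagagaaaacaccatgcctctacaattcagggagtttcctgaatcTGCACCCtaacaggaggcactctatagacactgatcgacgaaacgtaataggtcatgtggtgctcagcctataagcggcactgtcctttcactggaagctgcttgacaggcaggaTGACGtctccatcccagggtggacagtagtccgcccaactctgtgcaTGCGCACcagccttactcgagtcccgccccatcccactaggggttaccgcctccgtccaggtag
The second window of Slc37a4, chr9:44396849-44397148, shares much of this stretch and held 2 short cAMP motifs and 1 metal response motif, and the third, chr9:44398104-44398403, held none. Of the other members, Fbp2 had a short cAMP motif in its window and Fbp1, Gpt2 and the first window of Pcx each had a metal response motif. In all, 10 windows of 7 members were searched, and none held AGAACA, the full glucocorticoid response element or GTAAACA. Gpt was not matched.

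G6pc stood at 349, 260 and 148 normalised counts in water + PBS and at 359, 291 and 278 in ZnSO4 + PBS. It stood at 289, 809 and 531 in water + Dex and at 905, 321 and 633 in ZnSO4 + Dex. The Dex groups spread more than the PBS groups and overlapped with them. The LFC with Dex was 1.11 on water (SE 0.42, adjusted p = 0.14, edgeR) and 1.001 on zinc (SE 0.42, adjusted p = 0.15), neither called. Leaving out 1 library moved these LFCs between 0.69 (without water + Dex replicate 2) and 1.41 on water and between 0.62 (without ZnSO4 + Dex replicate 1) and 1.31 on zinc. With zinc it was 0.29 under PBS and 0.19 under Dex, each within 1 SE of 0.

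Slc37a4 (ENSMUSG00000032114, chr9:44396852-44402968, plus strand, GRCm38) had small but steady differences. It was counted at 303, 369 and 359 in water + PBS, at 432, 361 and 401 in ZnSO4 + PBS, at 502, 511 and 544 in water + Dex and at 743, 628 and 739 in ZnSO4 + Dex. Both Dex groups lay above both PBS groups without overlap, and the ZnSO4 + Dex mice lay above the water + Dex mice. Dex on zinc was called, with an LFC of 0.82 (SE 0.10, adjusted p = 0.00027, edgeR), just over the cut-off. Without ZnSO4 + PBS replicate 2 the LFC was 0.75, without ZnSO4 + Dex replicate 1 it was 0.78 and without ZnSO4 + Dex replicate 3 it was 0.78, each under the cut-off with an adjusted p of at most 0.0020 over all libraries left out in turn. Dex on water gave 0.59 (SE 0.10, adjusted p = 0.0031) and zinc on top of Dex gave 0.44 (SE 0.10, adjusted p = 0.031), which passed on p but not on size, the latter with an adjusted p of up to 0.13 when single libraries were left out. Zinc under PBS gave 0.21 (SE 0.10, adjusted p = 0.28). The interaction was 0.23 (SE 0.14, adjusted p = 0.95).

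The fructose bisphosphatases, which remove a phosphate from fructose bisphosphate, were present as a weak and a strong gene. Per exon length, Fbp2, known mainly from muscle, was the more abundant, with 116.5 ± 6.4 CPM per kb of exon (reads scaled to depth and exon length) in water + PBS against 5.98 ± 0.37 for Fbp1, the isoenzyme of liver and kidney (SD, n = 3 each). Fbp2 (ENSMUSG00000021456, chr13:62836877-62858422) and Fbp1 (ENSMUSG00000069805, chr13:62864753-62888282) are neighbours on the minus strand of GRCm38, and their exons share no stretch of 31 bases with any other gene.

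Fbp1 had 123, 116 and 108 normalised counts in water + PBS and 218, 148 and 119 in ZnSO4 + PBS. It had 90.3, 100.4 and 90.8 in water + Dex and 158, 142 and 163 in ZnSO4 + Dex. The water + Dex mice were lowest and lay below every mouse of each other group. Zinc on top of Dex gave an LFC of 0.72 (SE 0.19, adjusted p = 0.056, edgeR), and zinc under PBS 0.48 (SE 0.18, adjusted p = 0.17), neither called. The Dex LFC was -0.30 on water and -0.07 on zinc.

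Fbp2 varied little, at 2070, 1870 and 1902 in water + PBS, 2383, 2262 and 2356 in ZnSO4 + PBS, 1812, 1727 and 1624 in water + Dex and 2175, 1766 and 2441 in ZnSO4 + Dex. The ZnSO4 + PBS mice lay above the water + PBS mice without overlap, and the water + Dex mice lay below the water + PBS mice, also without overlap. The LFC was 0.26 for zinc under PBS (SE 0.10, adjusted p = 0.18, edgeR), 0.31 for zinc on top of Dex (SE 0.10, adjusted p = 0.13) and -0.18 for Dex on water (SE 0.10, adjusted p = 0.35). None passed the test.

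Gpt, Gpt2 and Pcx feed pyruvate and oxaloacetate into the pathway. Gpt (ENSMUSG00000022546, chr15:76695716-76699686, plus strand, GRCm38) was counted at 1142, 1223 and 1452 in water + PBS and at 1830, 2109 and 2077 in water + Dex, without overlap. In mice on zinc it stood at 1357, 1038 and 864 under PBS and at 1401, 1019 and 1702 with Dex, and these groups overlapped. The LFC with Dex was 0.66 on water (SE 0.19, adjusted p = 0.051, edgeR; 0.011 with DESeq2), under the cut-off on size with either tool, and 0.34 on zinc (SE 0.19, adjusted p = 0.30). The 3 ZnSO4 + Dex mice all lay below the 3 water + Dex mice, with an LFC for zinc of -0.55 (SE 0.19, adjusted p = 0.14). The interaction of Gpt was -0.32 (SE 0.27, adjusted p = 0.96).

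Pcx (ENSMUSG00000024892, chr19:4510472-4621752, plus strand, GRCm38) ranged from 389 to 767 in water + PBS, 380 to 1055 in ZnSO4 + PBS, 716 to 1176 in water + Dex and 476 to 890 in ZnSO4 + Dex. Gpt2 (ENSMUSG00000031700, chr8:85492576-85527560, plus strand) ranged from 119 to 171, 114 to 197, 167 to 240 and 166 to 319 in the same order, and 3.61% of its 31-base words recur in other genes, including Gm5049 and Gm15356. The groups of both genes overlapped in every comparison and no LFC was called. The largest in size was 0.89 for Pcx with Dex on water (SE 0.38, adjusted p = 0.19, edgeR). The interaction of Pcx was -1.05 (SE 0.54, unadjusted p = 0.074, adjusted p = 0.95).

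Both ran with the summed fat cell markers of the libraries within their groups. After the group means were taken off, log2 levels of Gpt2 rose with the adipocyte sum over the 12 libraries (Pearson's r = 0.930, p = 7.7e-04, the smallest p these permutations can give, adjusted p = 0.019; Spearman's rho = 0.923, p = 7.7e-04, adjusted p = 0.019; exact permutation within groups, two-sided, 1296 arrangements, 24 relations tested). Without the 2 libraries farthest from the median r was 0.907. For Pcx, r was 0.914 (p = 0.0046, adjusted p = 0.037) and rho 0.846 (p = 0.013, adjusted p = 0.10), by the same exact permutation test, and r was 0.861 without the 2 farthest libraries. Gpt followed the enterocyte sum, with r = 0.824 (p = 0.0015, adjusted p = 0.019), rho = 0.874 (p = 0.0023, adjusted p = 0.028) by exact permutation and r = 0.709 without the 2 farthest libraries. The enterocyte sum was itself higher in water + Dex (329705 to 372356) than in water + PBS (251071 to 287976), without overlap. In ZnSO4 + Dex it ran from 137610 to 361987. Whether enterocyte content had a part in the differences of Gpt between groups was not tested. Pck1 had r = 0.062 with the adipocyte sum (p = 0.87, adjusted p = 0.93), rho = 0.056 (p = 0.89, adjusted p = 0.90) by exact permutation and r = -0.018 without the 2 farthest. With the hepatocyte sum, r was largest in size for Fbp2 (-0.605, adjusted p = 0.38, exact permutation) and Gpt2 (0.568, adjusted p = 0.35, exact permutation). For G6pc it was -0.149 (adjusted p = 0.85, exact permutation). With the adipocyte sum as a covariate, the LFC with Dex on water turned to -0.08 for Pcx and -0.15 for Gpt2, and that with zinc under PBS to -0.19 and -0.18. The sum was itself higher in water + Dex (5349 to 10606) than in water + PBS (2039 to 5221). A covariate that differs with the treatment also takes away treatment effect, so these LFCs cannot tell the 2 apart.

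**Figure D2:**
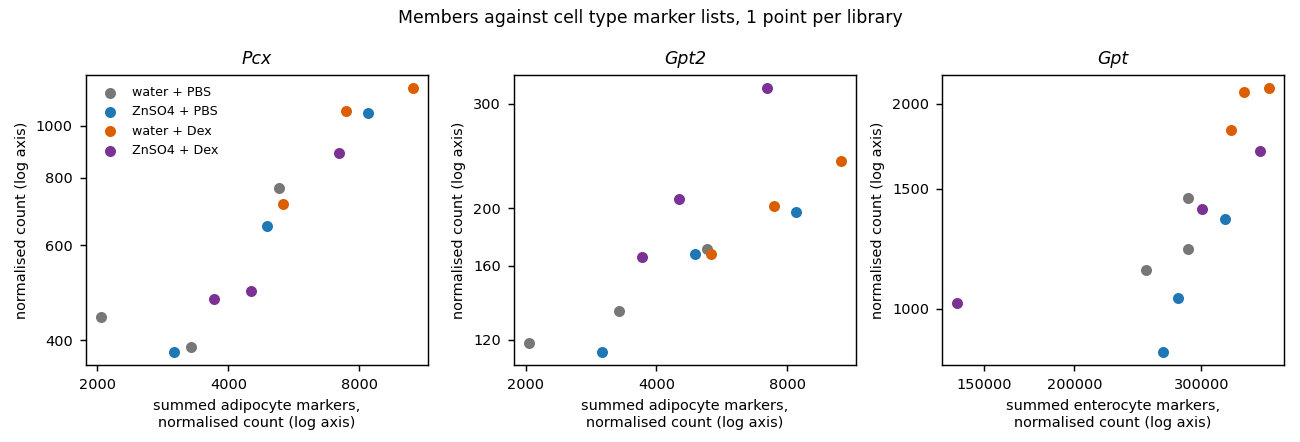
Normalised counts of Pcx and Gpt2 against the summed counts of 10 adipocyte markers, and of Gpt against the summed counts of 12 enterocyte markers, with 1 point for each of the 12 libraries and log scales on all axes. The points rise from left to right, with an r of 0.914, 0.930 and 0.824 once group means are taken off, and the lone point at the left of the Gpt panel is ZnSO4 + Dex replicate 2 with an enterocyte sum of 137610.

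As a group, the 8 genes gave few calls. Since they were chosen with earlier results of these data known, the shares of all genes beside them are a description only. With Dex on water, 1 of 8 was called higher (Pck1) and 0 lower, where 2.79% of all genes tested were called higher and 1.64% lower. With Dex on zinc, 2 of 8 were called higher (Pck1 and Slc37a4) and 0 lower, where 3.41% of all genes were higher and 2.4% lower. With zinc under PBS, 1 of 8 was called higher (Pck1) and 0 lower, where 0.747% of all genes were higher and 0.954% lower. With zinc on top of Dex, 0 of 8 were called by edgeR, where 0.696% of all genes were higher and 1.2% lower, while 5 members had an unadjusted p under 0.05, as did 3048 of the 15938 genes, and DESeq2 called 1 member (Pck1) and 360 genes in all.

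The median LFC of the 8 was 0.63 with Dex on water, 0.44 with Dex on zinc, 0.28 with zinc under PBS and 0.25 with zinc on top of Dex, where the median over all genes tested was -0.014, 0.009, -0.013 and 0.007. No interaction was called among the members or among all genes (0% of genes) with edgeR or with DESeq2. At an unadjusted p under 0.05 edgeR gave 0 members and 794 of all genes.

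**Figure D3:**
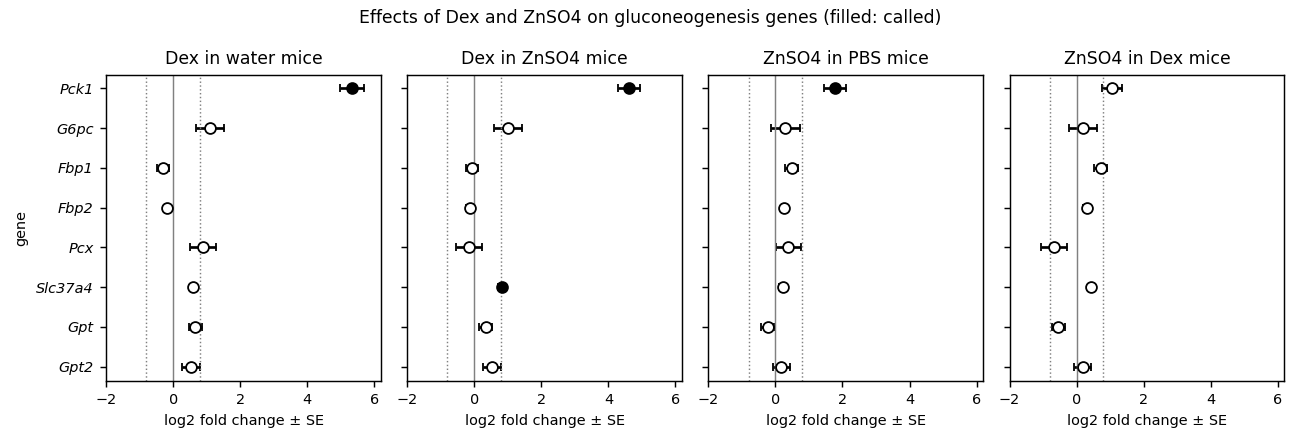
LFC with its SE (x axes) of the 8 gluconeogenesis genes for Dex on water, Dex on zinc, zinc under PBS and zinc on top of Dex. Filled points were called, which are Pck1 in 3 panels and Slc37a4 in the panel of Dex on zinc, and the dotted lines mark an LFC of 0.8 in size.

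The order of the members by level changed with Dex. Per exon length, Fbp2 was highest in water + PBS at 116.5 CPM per kb, followed by Gpt at 38.0 ± 4.8. Slc37a4 (10.6 ± 1.1), Pcx (9.84 ± 3.78), G6pc (9.19 ± 3.67), Fbp1 (5.98 ± 0.37) and Pck1 (4.77 ± 1.77) came next, and Gpt2 was lowest at 2.20 ± 0.41. From Slc37a4 to Pck1, neighbours in this order differed by less than the larger of their SDs. In water + Dex, Pck1 reached 193 ± 46.2 on this scale and stood above Fbp2 at 103 ± 5.6 and Gpt at 59.9 ± 4.6. In ZnSO4 + Dex it reached 401 ± 132, against 127 ± 20.4 for Fbp2, and in ZnSO4 + PBS it was 16.3 ± 1.7, next to Pcx at 12.9 ± 6.28.

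**Figure D4:**
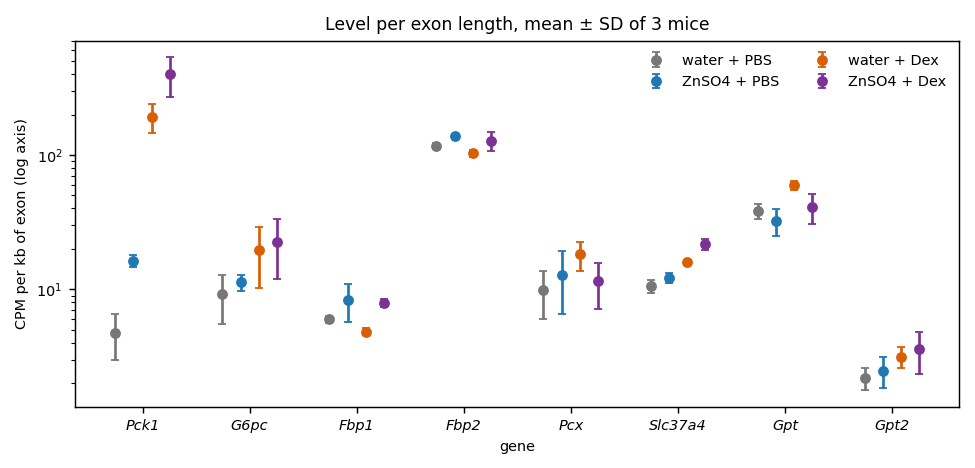
Level of each member as CPM per kb of exon (y axis, log scale), mean and SD of 3 mice per group. Pck1 goes from 4.77 in water + PBS to 401 in ZnSO4 + Dex, while Fbp2 stays between 103 and 140 in all 4 groups.

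No relative of the members and no gene of the reversible steps of the pathway was called, although a pair of them passed on adjusted p with small LFCs. Of 6 relatives, 5 could be tested (Pck2, the mitochondrial carboxykinase, G6pc3, Slc37a1, Slc37a2 and Slc37a3) and 0 were called by edgeR or DESeq2 in the 4 comparisons, with 1 to 3 at an unadjusted p under 0.05. Of the 15938 genes tested, 3623 had such a p with Dex on water and 4196 with Dex on zinc. With zinc they were 3161 under PBS and 3048 on top of Dex. These counts, and the shares of all genes called given above, are the background for each list. Slc37a1 passed on adjusted p with Dex on zinc, under the cut-off on size (LFC 0.34, adjusted p = 0.030, edgeR). Pck2 had an LFC of 0.19 with Dex on water (SE 0.14) and 0.26 with zinc under PBS (SE 0.14). Of the 14 genes shared by glycolysis and gluconeogenesis, such as the aldolases and enolases, 0 were called by either tool, with 1 to 3 at an unadjusted p under 0.05, and their median LFC lay between -0.06 and 0.11. Gpi1, which interconverts glucose 6-phosphate and fructose 6-phosphate, passed on adjusted p but not on size with Dex on water (LFC 0.39, adjusted p = 0.012, edgeR) and on zinc (LFC 0.31, adjusted p = 0.029).

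Enzymes that work against gluconeogenesis, of which 14 of 15 could be tested, gave 1 higher call with Dex on water, 2 higher and 1 lower with Dex on zinc, and 2 and 1 lower calls with zinc under PBS and on top of Dex. Pfkfb3 makes the sugar bisphosphate that activates glycolysis and inhibits fructose bisphosphatase. It stood at 934 ± 227 in water + PBS, 361 ± 114 in ZnSO4 + PBS, 2877 ± 408 in water + Dex and 1444 ± 595 in ZnSO4 + Dex. Pfkfb3 rose with Dex on water (LFC 1.62, SE 0.32, adjusted p = 0.0073, edgeR) and fell by 1.37 with zinc under PBS (SE 0.33, adjusted p = 0.038). Hk2, a hexokinase, which traps glucose in the cell, stood at 1331 ± 143, 446 ± 42.4, 1880 ± 332 and 845 ± 26.9 in the same order. It fell by 1.58 with zinc under PBS and fell by 1.15 with zinc on top of Dex, and rose with Dex on zinc (LFC 0.92). With Dex on water the LFC of Hk2 was 0.50 and passed on p but not on size (adjusted p = 0.027, edgeR). Pfkfb4, of the same family as Pfkfb3, fell by 1.08 with Dex on zinc, and its LFC of -0.33 with Dex on water was not called (adjusted p = 0.39, edgeR). Acta1, an actin of skeletal muscle, was also called lower with zinc, as 1 of the 10 skeletal muscle markers, of which 3 could be tested and Myh1, Myh4 and Tnnc2 were at 0 in every library. The sum of that list was 486 to 1677 in water + PBS, 125 to 169 in ZnSO4 + PBS, 1799 to 2038 in water + Dex and 129 to 204 in ZnSO4 + Dex. The median LFC of the 3 tested markers was only -0.0197 with zinc under PBS and -0.31 on top of Dex, and only Acta1 was called. The part of skeletal muscle in these results was not tested. Immune cell markers were lower with zinc as well. Of 8 T cell markers, 2 were called lower under PBS and 4 on top of Dex, none was at 0 throughout a group, and their sum was 2028 to 3055 in water + PBS, 880 to 1306 in ZnSO4 + PBS, 2397 to 3744 in water + Dex and 922 to 1142 in ZnSO4 + Dex. Of 6 plasma cell markers, 1 was called lower on top of Dex, and their sum was 29723 to 31166, 18636 to 26947, 24220 to 31587 and 18792 to 25395 in the same order. The part of immune cells in the results with zinc was not tested.

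Genes that supply substrates gave mixed calls, with 23 of 25 tested. With Dex on water 2 rose, Prodh, which degrades proline (LFC 1.28), and Got1, the cytosolic aspartate aminotransferase (LFC 1.26), and 1 fell, Slc16a1, a carrier of lactate and pyruvate, by 0.89. With Dex on zinc the same 3 genes moved the same way (LFC 1.44, 1.52 and -0.87), and Tat rose too (LFC 1.96). On water the LFC of Tat with Dex was 0.61 and was not called (adjusted p = 0.22, edgeR). Tat, tyrosine aminotransferase, known from liver as a glucocorticoid target, stood at 303 ± 98.0 in water + PBS, 30.0 ± 6.8 in ZnSO4 + PBS, 461 ± 153 in water + Dex and 117 ± 27.8 in ZnSO4 + Dex. It was the only gene of this list called with zinc, and fell by 3.33 under PBS (SE 0.32, adjusted p = 0.00035, edgeR) and fell by 1.98 on top of Dex (SE 0.29, adjusted p = 0.0036). Tat and Pck1 thus had opposite signs with zinc under PBS.

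All 7 sugar transporters of the list could be tested. Slc5a1, the sodium glucose transporter of the brush border, rose with Dex on water (LFC 0.97) and on zinc (LFC 1.11), and Slc2a5, the fructose transporter, fell by 0.92 with Dex on water. Slc2a2, through which glucose leaves the enterocyte, rose with Dex on zinc (LFC 3.80, SE 0.72, adjusted p = 0.0043, edgeR), from a mean of 48.7 ± 50.4 to 676 ± 432 normalised counts. On water its mean went from 76.8 ± 49.7 to 344 ± 37.9, without overlap, but the LFC of 2.16 was not called (adjusted p = 0.071, edgeR). The interaction of Slc2a2 was 1.63 (SE 0.96, adjusted p = 0.95, edgeR). Slc5a9, a sugar cotransporter, fell by 0.89 with zinc on top of Dex (adjusted p = 0.019, edgeR), and under PBS its LFC of -0.75 (adjusted p = 0.040) passed on p but not on size. No transporter was called with zinc under PBS by edgeR or DESeq2, with 2 at an unadjusted p under 0.05, beside 3161 of all 15938 genes tested.

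Of 31 regulators of gluconeogenesis, 30 could be tested, and 4 rose and 2 fell with Dex on water, 5 rose and 2 fell with Dex on zinc. Klf15, a factor of amino acid breakdown and gluconeogenesis in liver, went from 40.8 ± 8.2 normalised counts in water + PBS to 262 ± 43.7 in water + Dex (LFC 2.68) and from 46.6 ± 21.8 in ZnSO4 + PBS to 349 ± 64.1 in ZnSO4 + Dex (LFC 2.90). Cry2, a clock repressor, rose on both fluids (LFC 2.07 and 1.72), as did the nuclear receptor Hnf4g (LFC 1.39 and 1.43). Nr3c1, the glucocorticoid receptor, fell by 0.96 on water and fell by 1.32 on zinc, and with Dex on zinc Irs1, an adaptor of the insulin receptor, was also called higher (LFC 1.33). Irs1 had an LFC of 0.93 with Dex on water, which was not called (adjusted p = 0.14, edgeR). With zinc, 0 of the 30 were called by edgeR or DESeq2, with 7 at an unadjusted p under 0.05 under PBS, of which 3 passed on adjusted p (Ppargc1a, Foxo4 and Insr), and 9 on top of Dex, of which 0 did. Of all 15938 genes tested, 3161 and 3048 had an unadjusted p under 0.05 in these comparisons. Ppargc1a, the coactivator PGC1 alpha, is named after its values were seen, since it fell outside the rule for naming genes. It was called higher with Dex on water (LFC 0.93, SE 0.13, adjusted p = 0.0010, edgeR), and with zinc under PBS its LFC of 0.77 (SE 0.13, adjusted p = 0.0099) stayed under the cut-off. With Dex on zinc the LFC of Ppargc1a was 0.51 and passed on p but not on size (adjusted p = 0.024, edgeR). Hnf4a, also named after its values were seen, went the other way from Hnf4g. It was called lower with Dex on zinc (LFC -0.85, adjusted p = 0.00082, edgeR). On water its LFC of -0.61 (adjusted p = 0.0084, edgeR) passed on p but not on size.

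Among 17 genes of glycogen and pyruvate use, 16 were tested. Pdk4, which switches off the entry of pyruvate into the citric acid cycle, rose with Dex on water (LFC 2.21) and on zinc (LFC 3.03), and Dlat, a subunit of the complex that Pdk4 acts on, rose with Dex on zinc (LFC 0.91). With Dex on water Dlat passed on adjusted p but not on size (LFC 0.72, adjusted p = 0.0015, edgeR). With zinc 0 were called by either tool under PBS or on top of Dex, with 3 and 2 at an unadjusted p under 0.05, beside 3161 and 3048 of all 15938 genes tested. The 3 under PBS also passed on adjusted p with LFCs under the cut-off, which are Pgm1 (LFC 0.61, adjusted p = 0.00070, edgeR), Gbe1 (LFC 0.45, adjusted p = 0.041) and Pdk2 (LFC 0.52, adjusted p = 0.041), and Pgm1 did so on top of Dex (LFC 0.31, adjusted p = 0.025).

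**Figure D5:**
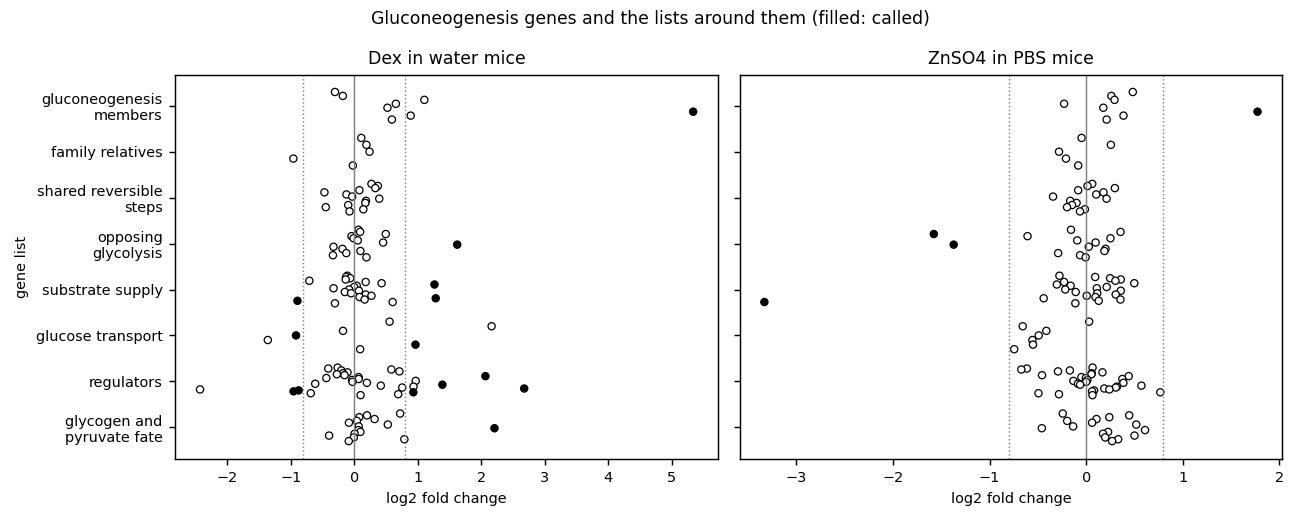
LFC (x axes) of the tested genes of each list for Dex on water and zinc under PBS, with 1 point per gene, filled where called, and dotted lines at 0.8 in size. The filled point farthest to the right in either panel is Pck1, and the filled point farthest to the left in the zinc panel is Tat at -3.33.

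The genes whose levels ran most like each member over the 12 libraries were taken from 14971 genes with a mean of at least 1 CPM. Likeness is Pearson's r of log2 CPM, given as a description, and it carries the differences between the groups as well as those within them. For Pck1 they were Mrtfb (0.985), Tmem86a (0.983) and Hpcal1 (0.983), and for Slc37a4 they were Otub1 (0.979), Tbc1d8 (0.975) and Ano3 (0.972). For G6pc, R3hdm2 (0.932) and Clcn2 (0.916) came first. For Fbp1 these were Suds3 (0.932), Ugt2b36 (0.912) and Cda (0.896), and for Fbp2 Atp6v0e2 (0.955) and Cachd1 (0.937). Pcx ran most like Fasn, the fatty acid synthase (0.957), Mrap (0.948) and Scara5 (0.935), and Gpt2 like Gpam, an enzyme of triglyceride synthesis (0.941), Plin4, a coat protein of lipid droplets and 1 of the adipocyte markers (0.898), and Art3 (0.889). Gpt ran most like Card14 (0.972), Slc51b, a bile acid exporter of the ileum (0.963), and Gbf1 (0.950).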

How the data were processed

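Ileum RNA-seq of 12 mice in 4 groups of 3 was used. The deposited values are raw counts per gene, made by the authors from stranded, single-end reads mapped to mm10 (HISAT2 2.0.4 in the submitters' notes, with Trimmomatic and SAMtools) and counted with featureCounts, reads with several positions being left out, which lowers counts of genes with near copies. The annotation release and the strand setting are not given in the sources used here. Exons of the 8 members overlap no other gene on either strand.

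Counts were analysed in R 4.3.3 with edgeR 4.0.16 (filterByExpr by group, minimum count 10, TMM, 1 quasi-likelihood model of 4 group means) and checked on simulated data; limma 3.58.1 and DESeq2 1.42.0 served alternatives. The cut-offs on adjusted p (0.05) and LFC (0.8) are those of the study. The 15938 genes tested hold 99.8% of all counts. Depth was even, between 10760132 and 11827487 counts per library, so precision was set by the spread between mice, with a biological coefficient of variation of 0.191. Replicates of a group differed by more than sampling noise (chi-square per degree of freedom 7.63 to 41).

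Members and lists were chosen with earlier results of these data known. All 8 members are named, as well as the treatment check genes, the 4 called genes of largest LFC per list and comparison, and the 3 nearest genes per member, of which some are not reported here. Ppargc1a, Hnf4a and the genes said to pass on adjusted p but not on size (Slc37a1, Gpi1, Foxo4, Insr, Pgm1, Gbe1 and Pdk2) were named after their values were seen. Coordinates are from GENCODE on GRCm38 (mm10), promoters from RefSeq on GRCm38.p6.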

Additional observations from a re-analysis of the deposited data

How the results depend on the processing

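Of 936 values of the members under the alternatives, 894 kept their direction and their call. In the main analysis 1, 1, 0 and 2 members were called for Dex on water, zinc under PBS, zinc on top of Dex and Dex on zinc. Without the cut-off on LFC, 2 members were called for Dex on water and 1 for zinc on top of Dex, and 27, 11, 5 and 28 genes of the lists were called in the 4 comparisons. Testing against an LFC of 0.8 with glmTreat left 0 members for zinc under PBS and 1 for Dex on zinc, and 3, 0 and 10 genes of the lists for Dex on water, zinc on top of Dex and Dex on zinc. For zinc on top of Dex, DESeq2, upper quartile factors and keeping all genes with at least 1 count each called 1 member (Pck1, adjusted p = 0.0047, 0.049 and 0.023), leaving out 1 library gave 0 to 1, and for Dex on zinc it gave 1 to 2 members. The cause was not tested.

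Reversals concerned uncalled LFCs. With the adipocyte covariate, chosen after seeing the data, Pcx turned to -0.083 (Dex on water) and -0.189 (zinc under PBS) and Gpt2 to -0.146 and -0.180, and the interaction of Fbp2 to -0.055. The adipocyte sum was itself higher in water + Dex than in water + PBS, without overlap. Interactions near 0 also turned, for Gpt2 to -0.0128 (DESeq2), -0.0108 (RLE factors), -0.0089 (all genes with at least 1 count), -0.149 (hepatocyte covariate) and -0.164 (libraries rich in hepatocyte markers left out), and for G6pc to 0.192 in the last setting, both also chosen after seeing the data. With single libraries left out, the LFC ran from -0.044 to 0.744 for Pcx and -0.0013 to 0.370 for Gpt2 (zinc under PBS), -0.188 to 0.607 for G6pc and -0.123 to 0.373 for Gpt2 (zinc on top of Dex), -0.520 to 0.265 for Pcx and -0.247 to 0.204 for Fbp1 (Dex on zinc), and the interaction from -0.483 to 0.302 for G6pc, -0.068 to 0.162 for Fbp2 and -0.301 to 0.195 for Gpt2.

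Replicate numbers showed no pairing of the mice in the median: deviations from group means correlated with a median r of -0.056 over 18 pairs of the same number and 0.022 over 36 pairs of other numbers. Single pairs of the same number ranged from -0.359 to 0.457, and pairing of only some mice was not tested. A replicate block changed no call of a member and turned the interaction of Gpt2 to -0.0211. With 3 mice a group, SEs of 0.38 to 0.42 for G6pc and Pcx limit what could be detected, and no RNA quality values were used here.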
